A study of Mus musculus with 96 samples.

Results

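Contacts of the chromosome 4 viewpoint at 152.9 Mb were compared between the intact homologue of a deletion chromosome and the same homologue in control cells. They were read in 4 of the 96 libraries of the study, those of this viewpoint labelled C57Bl6 from the MEF lines 129S5E71, 129S5E98, 129S5E117 and 129S5E118, here E71, E98, E117 and E118. MEFs are primary mouse embryonic fibroblasts, here grown to confluence at passage 4 from embryos taken 13.5 days after plug from crosses of Df/Dp male chimeras with C57BL6/J. E71 and E98 were Df/+Bl6 and carried Df, an engineered deletion of 4E2 on the 129S5SvEvBrd chromosome, beside an intact C57BL/6J chromosome, here +DBl6. E117 and E118 were +129/+Bl6 controls with intact chromosomes of both strains, and their C57BL/6J chromosome is here +Bl6. Every library thus came from cells heterozygous for the same strains, and no Dp chromosome was labelled in any of them. The viewpoint lies inside the DNA missing from Df, and the comparison asked whether losing that DNA on one chromosome went with other contacts of its intact partner.

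Paired-end 4C-seq captures DNA that was close to one chosen fragment in the nucleus. Crosslinked chromatin is cut, ligated, and cut again, and primers in the viewpoint amplify whatever was ligated to it. Contact frequency usually falls with distance along the chromosome, and contacts are often confined to domains, stretches that touch themselves more than their neighbours. Gene-poor stretches often form domains apart from gene-dense ones. Strain sequence differences in the viewpoint let each read be given to 1 homologue.

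The viewpoint was the 492 bp HindIII fragment chr4:152922091-152922582 (NCBIM37/mm9), in intergenic DNA. The nearest protein-coding gene on the centromeric side was Ajap1, which encodes a transmembrane protein of adherens junctions and ended 65152 bp away. The nearest on the telomeric side was A430005L14Rik, 408764 bp away. The part of the fragment between its last DpnII site and its HindIII site is shown because it decides which homologue a read belongs to. Capitals mark the DpnII site GATC, the HindIII site AAGCTT and the single position, 152922494, at which both strains differ, given as the reference base. The segment lies on the plus strand at chr4:152922363-152922582, P1 lies on the minus strand at chr4:152922495-152922513 and P2 on the plus strand at chr4:152922559-152922582. The base next to the 3′ end of P1 is the strain difference, and P2 ends with the HindIII site across which partners were ligated.
Viewpoint segment: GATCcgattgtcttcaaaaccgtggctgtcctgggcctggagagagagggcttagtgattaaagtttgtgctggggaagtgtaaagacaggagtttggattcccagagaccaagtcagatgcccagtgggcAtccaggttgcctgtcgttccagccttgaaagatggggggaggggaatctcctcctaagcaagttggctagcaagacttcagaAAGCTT
P1, DpnII side: gaacgacaggcaacctgga
P2, HindIII side: ggctagcaagacttcagaAAGCTT

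The 4 libraries differed in depth. The +DBl6 libraries held 1870176 reads in E71 and 1968616 in E98, and the +Bl6 libraries held 109782 in E117 and 1647337 in E118. Between 66.4% and 76.4% of these reads lay on the viewpoint fragment itself, so all shares below are of the reads more than 20 kb away. Those were 18709 in +Bl6 E117 and 371305 in +Bl6 E118.

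The +DBl6 libraries were not independent. At fragments more than 1 Mb away they shared 1400 captured fragments, which held 99.3% of the distant reads of the pair. The log read numbers at these fragments had r = 0.963, and a chi-square of the counts was 0.974 per degree of freedom. The pair differed by less than the sampling noise and was counted as 1 sample of 580765 reads beyond 20 kb. The +Bl6 libraries shared 419 fragments, with r = 0.182 and 40.2 per degree of freedom. The comparison therefore rested on 1 +DBl6 sample against 2 +Bl6 samples, for which an exact permutation test cannot give a p-value under 0.333. E71 and E117 were purified with columns and E98 and E118 with beads. The +129 homologue of the control lines, read from the same cells, is given beside the results as the spread between intact chromosomes.

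The viewpoint contacted a broad local domain on the intact homologue and on the control alike. Reads were dense from Nphp4, a gene for a protein of the ciliary transition zone, through Ajap1 to A430005L14Rik. This stretch, chr4:151937293-153331345, is 1.39 Mb long and holds only Ajap1 among protein-coding genes. It was bounded by genes after the profile had been seen and so has no test. It held 57.8% of the reads beyond 20 kb in +DBl6 (95% Wilson interval 57.7 to 57.9), 57.5% in +Bl6 E117 (56.8 to 58.2) and 51.3% in +Bl6 E118 (51.2 to 51.5). The +DBl6 share was next to that of the higher control, and the controls differed from each other by more than either interval. The +129 homologue gave 58.7% in E117 and 54.6% in E118, so in both homologues of the control lines E117 was the higher line. Intervals cover counting error only, since PCR reads without molecular identifiers are not independent molecules.

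Nearly every fragment of the domain was captured where depth allowed. Of its 365 HindIII fragments outside 20 kb, 344 had a read in +DBl6 and 343 in +Bl6 E118. The shallow +Bl6 E117 library captured 234. These are 94.25%, 93.97% and 64.11% of the fragments. In the 400 kb beyond the telomeric end of the domain, 85.71% were captured in +DBl6, 91.67% in +Bl6 E118 and 57.14% in +Bl6 E117. In the 400 kb beyond the centromeric end the shares were 67.47%, 77.11% and 32.53%. Capture alone thus hardly set the domain apart from its telomeric flank. Read density in the domain was 4322 RPM per 10 kb, where RPM are reads per 1000000 reads beyond 20 kb, in +DBl6, 4301 in +Bl6 E117 and 3840 in +Bl6 E118.

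**Figure D1:**
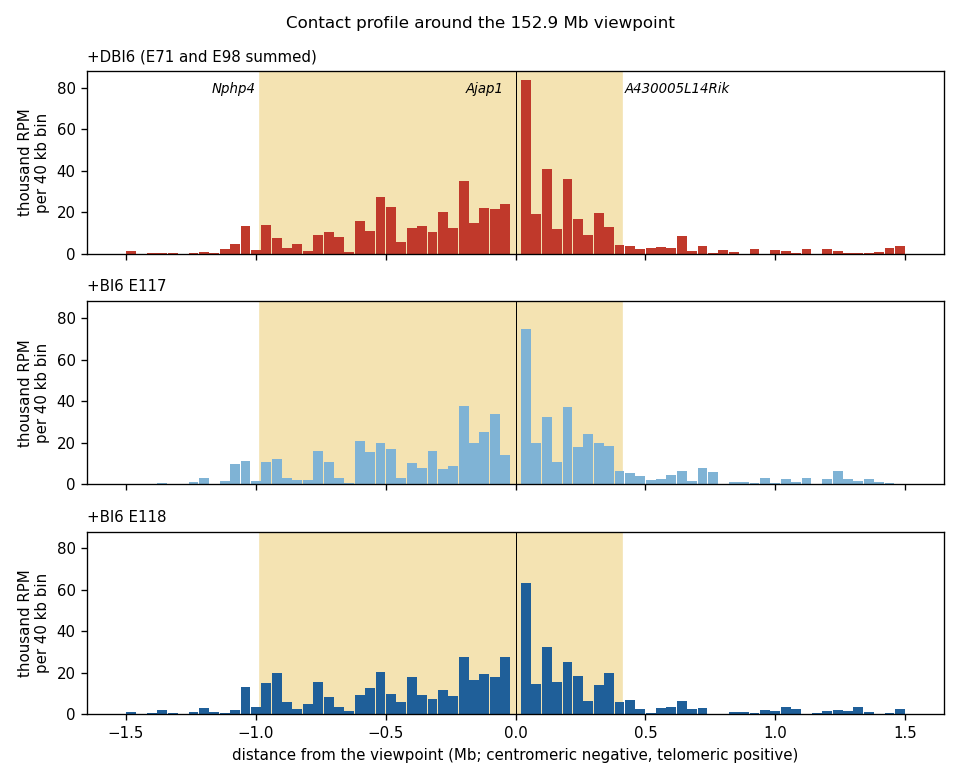
RPM in 40 kb bins (y axis, in units of 1000) against distance from the viewpoint in Mb (x axis), 1 panel for the summed +DBl6 library and 1 for each +Bl6 library. The shaded stretch runs from Nphp4 to A430005L14Rik and holds 57.8%, 57.5% and 51.3% of the reads from top to bottom.

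Contact was lower beyond both gene-dense borders than in the domain as a whole. In the 400 kb beyond the centromeric end, which overlap 9 protein-coding genes, density was 639.7 RPM per 10 kb in +DBl6, 718 in +Bl6 E117 and 688 in +Bl6 E118. The domain was thus 6.76 times as dense as this flank in +DBl6, 5.99 and 5.58 times in +Bl6, and 7.42 and 6.74 times in +129. In the 400 kb beyond the telomeric end, with 11 protein-coding genes, density was 755 RPM per 10 kb in +DBl6, 1010 in +Bl6 E117 and 809 in +Bl6 E118. The domain was 5.72 times as dense as this flank in +DBl6, above 4.26 and 4.74 times in +Bl6 and above 3.63 and 5.21 times in +129. The ratios were not tested. They include the fall of contact with distance, since the flanks lie farther out, and so do not measure a step at a border. On the centromeric side the border lay 0.985 Mb away. The 40 kb bin at -1.04 Mb, beyond it, still held 13190 RPM in +DBl6, 11010 in +Bl6 E117 and 12960 in +Bl6 E118. At -1.12 Mb they held 2371, 1283 and 490.

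Genes of the borders were contacted unevenly. Ajap1 inside the domain had 4709 RPM per 10 kb in +DBl6, 6535 in +Bl6 E117 and 4421 in +Bl6 E118. Nphp4 at the centromeric border had 1693, 1460 and 1898 in the same order. Kcnab2, which encodes a beta subunit of voltage-gated potassium channels and lies just beyond Nphp4, had 749, 1073 and 286. For all 3 genes +DBl6 lay between the controls. Farther out, +DBl6 was below both +Bl6 libraries at Chd5 (133 against 453 and 435), Rpl22 (61.5 against 1264 and 1049), Rnf207 and Icmt. At Chd5 and Rpl22 it was also below +129, which had 215 and 152, and 357 and 465. It lay between the +Bl6 libraries at Acot7, Gpr153 and Hes3. None of these differences was tested.

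On the telomeric side Dffb, the gene of the caspase-activated nuclease, had 2157 RPM per 10 kb in +DBl6, below 3689 in +Bl6 E117 and 4348 in +Bl6 E118. Trp73, the p53 family member, had 747 in +DBl6 against 479 and 456. Prdm16, a transcription factor gene known from brown fat, had 261 against 294 and 387. The +129 homologue had 4521 and 3230 RPM per 10 kb at Dffb and 726 and 533 at Trp73. None of these genes has a test of its own.

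Decay with distance differed between the sides. On the centromeric side, +DBl6 kept 8.39% of its reads at 100 to 250 kb, 8.43% at 250 to 500 kb and 7.70% at 500 to 750 kb. The controls had 9.14% and 7.25%, then 6.02% and 6.20%, then 7.38% and 5.99%. At 250 to 500 kb +DBl6 lay above both +Bl6 libraries, and the +129 libraries lay there too, at 8.58% and 8.21%. Per fragment, +DBl6 fell over these 3 bands from 1907 to 1317 and 1013 RPM. On the telomeric side its share went from 10.5% at 100 to 250 kb to 5.11% at 250 to 500 kb, or from 2053 to 811 RPM per fragment. The telomeric shares of the controls went from 9.85% and 9.16% to 7.78% and 5.63%. Counted from the nearest fragment outward on both sides, the middle read beyond 20 kb lay at 0.538 Mb in +DBl6, 0.577 Mb in +Bl6 E117 and 0.809 Mb in +Bl6 E118.

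The sides were unlike each other near the viewpoint and far from it, and the libraries were alike in this. Within 20 to 100 kb, telomeric contacts led: 10.3% of reads against 4.56% on the centromeric side in +DBl6, 9.47% against 4.74% in +Bl6 E117, and 7.82% against 4.55% in +Bl6 E118. From 0.5 to 1 Mb the order was turned: the centromeric side held 11.4% against 2.86% in +DBl6, 11.6% against 3.48% in +Bl6 E117, and 12.1% against 2.47% in +Bl6 E118. These are ratios of 3.97, 3.33 and 4.91. In between, at 250 to 500 kb, the libraries were not alike: the ratio was 1.65 in +DBl6, 0.775 in +Bl6 E117 and 1.10 in +Bl6 E118, and 1.49 and 1.54 in +129. The centromeric border lay 0.985 Mb from the viewpoint and the telomeric border 0.409 Mb, so the far band was mostly inside the domain on one side and outside it on the other.

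**Figure D2:**
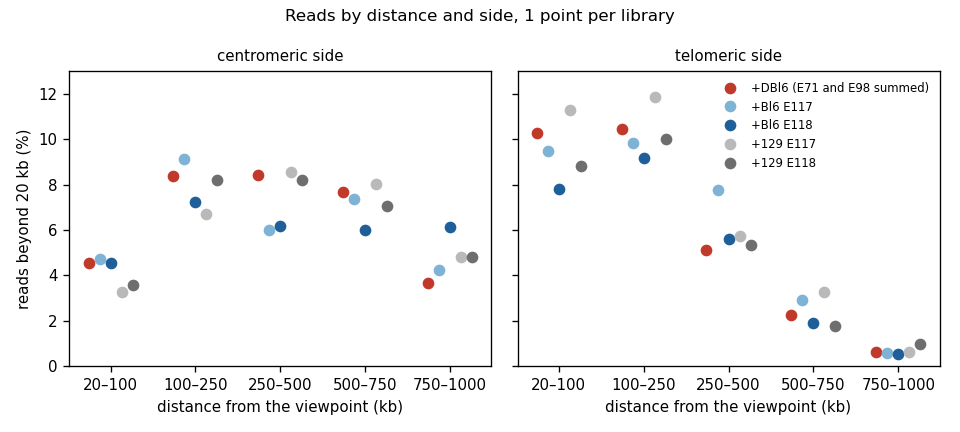
Percent of reads beyond 20 kb (y axis) in 5 distance bands (x axis, kb) on the centromeric and telomeric side, with 1 point per library. At 750 to 1000 kb all 5 telomeric points lie between 0.539% and 0.966% and all 5 centromeric points between 3.68% and 6.12%.

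Over the whole range to 1 Mb the sides nearly balanced. The log2 ratio of centromeric over telomeric reads from 20 kb to 1 Mb was 0.19 in +DBl6, 0.04 in +Bl6 E117 and 0.26 in +Bl6 E118. The difference from the +Bl6 mean of 0.15 ± 0.16 (SD, n = 2) was 0.04 (exact permutation test, two-sided, p = 1.0). There were 258 HindIII fragments on the centromeric and 253 on the telomeric side.

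The share of reads within 1 Mb was 61.5% in +DBl6, 62.1% in +Bl6 E117 and 55.2% in +Bl6 E118. The difference from the +Bl6 mean of 58.6% ± 4.89 (SD, n = 2) was 2.83 percentage points (exact permutation test, two-sided, p = 1.0), less than the spread between the controls. The share inside the 4.32 Mb interval deleted from Df, chr4:150090533-154411694 as read from where contacts of the Df libraries were missing, was 68.1%, 70.8% and 63.0% in the same order. It differed from the +Bl6 mean by 1.20 points (exact permutation test, two-sided, p = 1.0). In all 3 quantities the +DBl6 sample lay between the control libraries. Within the purification batches the near share was 61.5% in +DBl6 E71 against 62.1% in +Bl6 E117 with columns, and 61.4% in +DBl6 E98 against 55.2% in +Bl6 E118 with beads. Since the +DBl6 libraries were 1 sample lying between the controls, these differences say nothing of the batch.

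The viewpoints on either side gave a setting for these values. The viewpoint at 152.4 Mb lies in the same domain and sent 62.7% of its +DBl6 reads into it, and 60.1% and 57.3% of its +Bl6 reads. The viewpoint at 153.4 Mb, beyond the telomeric border, sent 15.7% and 15.0% in +DBl6 and 11.7% in its +Bl6 libraries, which were summed for the same reason. At 153.4 Mb the log2 side ratio was -0.77 and -0.80 in +DBl6 and -0.76 in +Bl6, telomeric contacts leading. No test was made between viewpoints.

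The decay exponent is the slope, at 100 kb, of log10 reads per base against log10 distance. Unlike the shares, it also used reads within 20 kb. A value nearer 0 means slower decay. It was -1.11 in +DBl6, -0.61 in +Bl6 E117 and -0.96 in +Bl6 E118. The +Bl6 mean of -0.78 ± 0.25 (SD, n = 2) was the shallowest of the 12 viewpoints, and the +DBl6 value had rank 5 among theirs. The rank of +Bl6 was 5 when E117 was left out at this viewpoint only. E118 alone was then ranked against values from both lines at the other viewpoints. The rank was also 5 with a straight line in place of the spline, 4 on the telomeric side alone and 3 with 3 degrees of freedom. It was 2 with reads thinned to an equal number and stayed 1 under the other alternatives.

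The difference of -0.32 (SE 0.24) between +DBl6 and +Bl6 did not pass limma's test (adjusted p = 0.867 over 12 viewpoints). Depth moved with the slope: the shallowest library had the slowest decay, and E71 and E98 taken singly gave -0.95 and -0.99 where their sum gave -1.11. Reads were then thinned to the same number in all 3 libraries, the 19409 of +Bl6 E117 on fragments whose midpoints lay at least 20 kb from the midpoint of the viewpoint, a wider set than the 18709 on fragments wholly beyond 20 kb. The slopes were then -0.68 in +DBl6, -0.58 in +Bl6 E117 and -0.71 in +Bl6 E118. At this equal read number, which does not equalise captured fragments, the +DBl6 slope lay between the controls, and the difference was -0.04 (SE 0.08; limma adjusted p = 0.676). The thinned slopes also leave out reads within 20 kb, which the full-depth slopes include. With those reads left out and no thinning, the slope was -1.16 in +DBl6 and the +Bl6 mean was -0.765, a difference of -0.40. Both settings were chosen after the values had been seen.

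**Figure D3:**
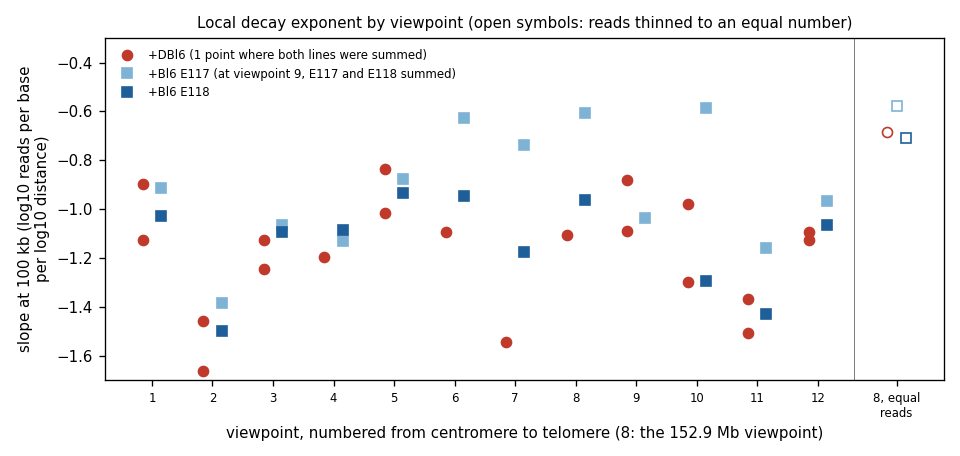
Slope of log10 reads per base on log10 distance at 100 kb (y axis) at each of the 12 viewpoints (x axis), with 1 point per independent library. At the right is the 152.9 Mb viewpoint with reads within 20 kb left out and all libraries thinned to the same number of reads. The full-depth +DBl6 point of viewpoint 8 lies at -1.11 below both +Bl6 points, and the thinned point at -0.68 lies between them.

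Contact was also tested in 80 kb windows along the whole chromosome. At this viewpoint a window entered only if most of the libraries had enough reads in it. The +Bl6 libraries could thus bring in a window without +DBl6, and the summed +DBl6 library could not bring one in alone. Of 410 windows with enough reads at this viewpoint, 1 was called by edgeR's quasi-likelihood test at an adjusted p under 0.05, and 27 had an unadjusted p under 0.05. Over all 12 viewpoints 0.178% of windows were called, 18 of 10138, so 1 of 410 is close to the background.

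The called window, chr4:152960001-153040000, began 37.4 kb telomeric of the viewpoint in intergenic DNA between Ajap1 and A430005L14Rik. It held 38709 reads in +DBl6, 1052 in +Bl6 E117 and 17773 in +Bl6 E118. As RPM of the reads beyond 20 kb these were 66652, 56230 and 47866. All 20 of its fragments had at least 5 reads in +DBl6, 14 had in +Bl6 E117 and 19 in +Bl6 E118, so it did not rest on a single fragment. The scaled log2 difference was 0.82 (SE 0.18, edgeR adjusted p = 0.00908), higher in +DBl6 than in both controls.

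That call depended on the scaling. Under TMM scaling, which equalises the bulk of windows, the median log2 difference of the 410 windows was 0.03, and with total reads it was -0.41. With total reads the window's difference was 0.36 and no window passed (smallest edgeR adjusted p = 0.595), and without E98 it was 0.55 with an edgeR adjusted p of 0.266, while without E71 it was 0.62 and passed (edgeR adjusted p = 0.00104). With all libraries as labelled and the purification batch as a block, 12 windows passed and this one was not among them (edgeR adjusted p = 1.0). The +129 homologue held 66412 RPM in this window in E117 and 44396 in E118, a range that takes in nearly the +DBl6 value.

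The other windows named by the smallest p-values lay close by or were sparse. The window around the viewpoint itself, chr4:152880001-152960000, was 0.76 higher in +DBl6 (SE 0.19, edgeR adjusted p = 0.0623). A window 0.442 Mb to the centromeric side, chr4:152400001-152480000, held 34680, 25870 and 16186 RPM and was 1.20 higher (SE 0.34, edgeR adjusted p = 0.143). On +129 it held 38915 and 31344 RPM, on both sides of the +DBl6 value. Neither window passed. The 26 windows within 1 Mb had a median scaled log2 difference of 0.44, and all 410 windows one of 0.03. Both medians are under TMM scaling, which lay a median of 0.412 above total-read scaling over the 410 windows. The local median thus does not show a gain of local contacts in +DBl6.

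The named windows with fewer reads in +DBl6 were far away and thinly read. They entered the test through both +Bl6 libraries. A window read only in +DBl6 could not enter, so the filter favoured this direction. At chr4:122400001-122480000, 30.4 Mb away between 9530002B09Rik and Ppt1, +DBl6 had 1 read where +Bl6 had 70 in E117 and 434 in E118 (edgeR adjusted p = 0.656). At chr4:122640001-122720000, over Mycl1 and Trit1, the reads were 1, 48 and 642 (edgeR adjusted p = 0.753). At chr4:155520001-155600000, 2.60 Mb to the telomeric side over Agrn and Isg15 among others, they were 7, 89 and 538 (edgeR adjusted p = 0.79). All 3 passed under DESeq2 (adjusted p = 0.00534, 0.00541 and 0.0113) and with the libraries as labelled and the purification batch as a block (edgeR adjusted p = 0.00586, 0.00586 and 0.00933). In the first of these windows all 70 reads of +Bl6 E117 sat on 1 fragment.

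The strongest local windows were chosen by the mean scaled RPM of the +Bl6 libraries, so the choice cannot show whether +DBl6 shared them. In +DBl6 a window outside this choice, chr4:152400001-152480000, held 34680 RPM, more than the 21663 of the chosen window at Nphp4. On the centromeric side the chosen windows were chr4:152800001-152880000 and chr4:152720001-152800000, both over Ajap1, and chr4:151920001-152000000 at the end of Nphp4. Their RPM were 56732, 47091 and 21663 in +DBl6, against 62644, 54199 and 23518 in +Bl6 E117 and 55221, 40193 and 35970 in +Bl6 E118. On the telomeric side, beside the called window, they were chr4:153040001-153120000, with 54922 RPM in +DBl6 against 63338 and 55795, and chr4:153200001-153280000, with 38458 against 57245 and 37931. None of these 5 windows passed, and the sign of the scaled difference turned with total-read scaling at all of them except the window at Nphp4.

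Between the intact homologues of the control lines, +129 against +Bl6, no window of this viewpoint was called out of 592 by edgeR, with unadjusted p under the threshold of 0.05 at 6 windows, or at 10 once each line was fitted as a block. The background over 11 viewpoints was 3.78%, of which nearly all, 398 of 403 calls, came from the viewpoint at 153.9 Mb.

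Far from the viewpoint each library had its own set of targets with a recurrent part. Of the 47328 fragments beyond 2 Mb, +DBl6 had 1058 fragments with at least 5 reads, +Bl6 E117 had 323 and +Bl6 E118 had 1809. The +DBl6 and +Bl6 E117 sets shared 55 fragments, 5.20% of the first and 17.0% of the second. The +DBl6 and +Bl6 E118 sets shared 229, 21.6% and 12.7%. The control libraries shared 79, 24.5% and 4.37%. The homologues of line E118, +Bl6 and +129, had 825 in common, 45.6% and 45.3%. Those of the shallow line E117 had only 49 in common, 15.2% of +Bl6 and 14.5% of +129.

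In all 3 independent samples 23 fragments were captured, 21 of them centromeric and 2 telomeric, from 2.04 to 34.3 Mb away. They held 6.07% of the reads beyond 2 Mb in +DBl6, 6.20% in +Bl6 E117 and 3.34% in +Bl6 E118. Of the 23, 12 overlapped a protein-coding gene, against 40.8% of all 47328 fragments beyond 2 Mb, and their median length was 2831 bases against 2125. Among all fragments with at least 5 reads beyond 2 Mb, 48.4% overlapped a gene in +DBl6, 55.1% in +Bl6 E117 and 49.0% in +Bl6 E118. Their median lengths were 2410, 2408 and 2354 bases. The gene share of the 23 was thus near that of captured fragments in general. All 23 had at least 5 reads from at least 1 other viewpoint in +Bl6, with a median of 5 of the 11 other viewpoints. A viewpoint counted if either of its +Bl6 libraries passed. The same count is not given for other distal fragments, so whether it sets these 23 apart cannot be told.

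The highest of them by geometric mean, chr4:145147470-145147899, lay 7.77 Mb away in an intron of Gm13242. It had 740 RPM in +DBl6, 1817 in +Bl6 E117 and 1756 in +Bl6 E118, and 2239 and 4227 in +129. It was captured from all 11 other viewpoints. +DBl6 was the lowest of the 5.

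The second, chr4:141816044-141817413, was intergenic between Kazn, whose product kazrin acts at cell junctions, and Prdm2, a zinc finger methyltransferase gene. It had 1004, 748 and 1220 RPM in the same order, and at most 36.7 in +129. The third, chr4:146789432-146790815, between Gm13145 and Gm13152, had 2180, 321 and 846 RPM.

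Inside the interval deleted from Df, 2 of the 10 highest fragments lay in introns of Camta1, a calmodulin-binding transcription activator gene. The one at chr4:150583950-150585094 had 2619 RPM in +DBl6, 1283 in +Bl6 E117 and 80.8 in +Bl6 E118. The one at chr4:150881593-150887009 had 195, 802 and 1662. The order of the samples was opposite at these 2 fragments.

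The remaining 5 of the 10 were unlike in spread. The fragment at chr4:121087459-121088315, over an exon of Gm12886, ran from 13.5 RPM in +Bl6 E118 to 3585 in +DBl6. The fragment chr4:144537709-144547807, between Dhrs3, a retinal reductase gene, and Vps13d, ran from 61.9 RPM in +Bl6 E118 to 2464 in +DBl6. The most even was the telomeric fragment chr4:155456519-155457944, between Ttll10 and 9430015G10Rik, with 453, 534 and 614 RPM. In +129 it had 36.7 and 13.8 RPM. The other two were chr4:131045407-131052320, between Matn1 and Ptpru, and chr4:139569229-139570447, between Klhdc7a and Igsf21, both highest in +DBl6. Over the 23 fragments +DBl6 was above both controls at 8 and below both at 10, and no test was made of single fragments. The choice at 5 reads required 267 RPM in +Bl6 E117 but 8.61 in +DBl6 and 13.5 in +Bl6 E118. A chosen fragment could thus be low in +DBl6 but not in +Bl6 E117, and the choice shaped these counts.

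**Figure D4:**
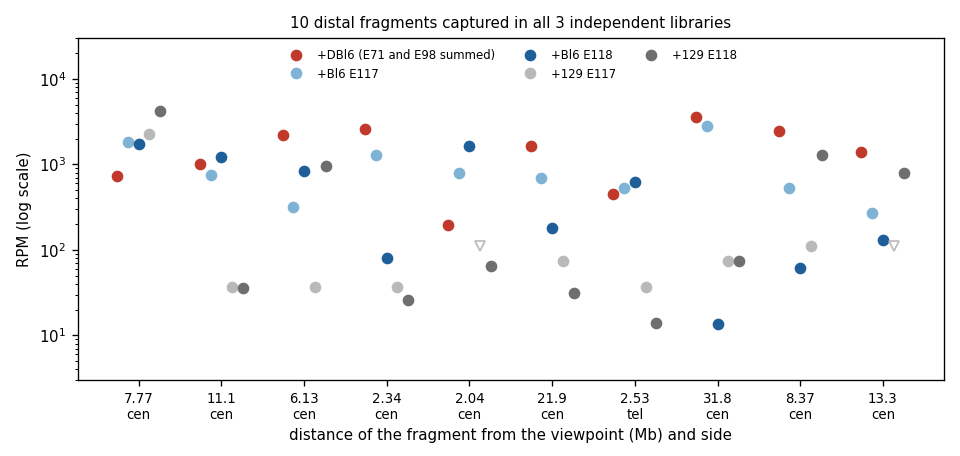
RPM (y axis, log scale) at the 10 distal fragments with the highest geometric mean over the 3 independent samples, ordered by that mean and named by their distance in Mb and side (x axis), with 1 point per library. Open triangles stand at 3 reads for a library with none. The points of a fragment spread up to the range from 13.5 to 3585 RPM seen at 31.8 Mb.

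The most heavily read distal fragment of each of the 3 samples had few or no reads in the other two. In +DBl6 the top fragment beyond 2 Mb, chr4:149631697-149634070 between Eno1 and Rere, held 4561 reads, and none of the 4 control libraries of either homologue had a read there. In +Bl6 E117 the top fragment, over an exon of 2610109H07Rik, had 90 reads, none in +DBl6 or +Bl6 E118, and 5 in +129 E117. In +Bl6 E118 the top fragment, between Gm13154 and 2610305D13Rik, had 1439 reads against 4 in +DBl6 and 5 in +Bl6 E117, but +129 E118 of the same line had 1468 and +129 E117 had 46. The third fragment of +Bl6 E118, between Kazn and Prdm2, had 1055 reads there and 590 in +DBl6. A count of 3 reads corresponds to 5.17 RPM in +DBl6, 160 in +Bl6 E117 and 8.08 in +Bl6 E118, so a fragment under 160 RPM could not be read reliably in E117.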

How the data were processed

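The authors gave each read pair to a homologue by the strain difference in read 1, aligned a trimmed read 2 with Bowtie (version not given in the sources used here) to sequence at HindIII sites of NCBI37/mm9, kept unique hits and deposited counts of reads per HindIII fragment of chromosome 4. No molecular identifiers were used. All 48319 fragment ends matched HindIII sites of the reference. The 96 count tables were used; 16 tables of the authors' own region comparisons were not.

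Reads within 20 kb of the viewpoint were left out of shares and windows. The exponents used captured fragments from 1 kb on. Replicate pairs whose log reads beyond 1 Mb correlated above 0.9 were summed (6 pairs; r of the other 33 was at most 0.354). Windows of 80 kb were tested with edgeR 4.0.16 (TMM, quasi-likelihood), exponents (spline with 4 degrees of freedom) with limma 3.58.1, both with Benjamini-Hochberg adjustment over all 12 viewpoints, and single values by exact permutation tests. DESeq2 1.42.0 was an alternative, as were other windows, filters, zones, scalings and left-out libraries. Each group held 2 MEF lines with 1 library each. Since the +DBl6 pair was summed, edgeR p-values at this viewpoint rest on the spread between both +Bl6 libraries and hold no spread between +DBl6 lines. In counts simulated for this comparison on 410 windows, of which 200 were changed, the edgeR test recovered 0.25% of 4-fold and 2.95% of 16-fold changes, so windows that did not pass say little about equality. Named windows and fragments were those called or with the 3 smallest p-values in each direction and the same sign against both controls, the 3 windows per side with the highest +Bl6 reads within 1 Mb, and the 10 recurrent distal fragments of highest geometric mean, with overlapping and neighbouring protein-coding genes (GENCODE M1). Genes at the domain borders were named after their values were seen. The comparison, lists and rules were chosen with earlier results of these data known.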

Additional observations from a re-analysis of the deposited data

Results flagged for a closer look

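The libraries labelled for the Df homologue of E71 and E98 at this viewpoint held reads although the viewpoint lies in the interval absent from Df. The E71 library held 5826 reads and the E98 library 12381, above the 3 reads that a count of 0 allows. Of the 188 distant fragments of the E71 library, 98.9% were also captured in +DBl6 E71, 99.5% in +DBl6 E98, 54.3% in +Bl6 E118 and 45.7% in +129 E118. Of the 533 of the E98 library, 44.7% were also captured in +DBl6 E71, 48.4% in +DBl6 E98, 78.8% in +Bl6 E118 and 81.8% in +129 E118. The sets looked up differed in size, with 1801, 2049, 3966 and 4016 distant fragments in this order. The cause was not tested, and the Df libraries of this viewpoint entered no comparison.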

How the results depend on the processing

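The 1 window called by edgeR was 1 again with every window of at least 1 read, where it was another window, and without the viewpoint at 153.9 Mb (chosen after seeing the data). The count was 0 with all libraries as labelled, with total-read scaling, with at least 100 reads, in 40 kb windows, with captured fragments and with only fragments of at least 5 reads, and 3 in 160 kb windows. DESeq2 called 18, all lower in +DBl6. Windows read only in +DBl6 could not enter the DESeq2 test, so its direction was shaped by the filter. With all libraries as labelled and the purification batch as a replicate block the count was 12 (7 higher, 5 lower), a fit that counts the shared +DBl6 molecules as 2 samples. Deviations of E71 and E98 correlated with those of E117 and E118 at r = 0.105 over 410 windows. Leaving out either +DBl6 library gave 0 to 3, and leaving out a +Bl6 library left no residual degrees of freedom, so no test was run. Over 11 viewpoints the +129 count fell from 403 to 3 with the MEF line as a replicate block and to 0 without the viewpoint at 153.9 Mb, where 298 of 9945 windows had an unadjusted p under 0.05. Over 12 viewpoints the +DBl6 count of 18 ranged from 0 with captured fragments to 351 with DESeq2, by way of 2 as labelled, 113 with the block, 38 with at least 1 read, 8 with at least 100 reads, 5 in 40 kb windows and 7 with fragments of at least 5 reads. The difference in near share turned to -2.04 points with captured fragments and ranged from -0.63 to 6.28 without single libraries. That in the deleted interval turned to -2.61 with captured fragments and -0.43 with fragments of at least 5 reads, and ranged from -2.74 to 5.14. That in the side ratio ranged from -0.075 to 0.15. The sign thus hung on which +Bl6 library was kept, E117 or E118. The exponent difference turned to 0.34 with the penalty set by cross-validation (limma adjusted p = 0.882), ranged from -0.50 to -0.14 without single libraries, and passed under no alternative. Recurrent distal fragments numbered 126 at 1 read, 11 at 10 reads, 46 beyond 1 Mb and 11 beyond 10 Mb, and 19 to 229 without single libraries. Of the named windows, the sign of the log2 difference turned at chr4:152800001-152880000, chr4:152720001-152800000, chr4:153040001-153120000 and chr4:153200001-153280000, in that order, to -0.16, -0.073, -0.22 and -0.35 as labelled, to -0.12, -0.059, -0.19 and -0.35 with the replicate block, to -0.095, -0.050, -0.16 and -0.36 with at least 100 reads and to -0.055, -0.0030, -0.12 and -0.31 with total-read scaling. The last was -0.045 to -0.084 without single +DBl6 libraries. At chr4:151920001-152000000 it turned to 0.25 with captured fragments and 0.15 with at least 1 read, and at chr4:152880001-152960000 to -0.18 with captured fragments. The causes were not tested. The depth of +Bl6 E117, 18709 reads beyond 20 kb, limits the distal comparisons that use it.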
